A study of Bos taurus with 2 samples.

Results

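The miRNAs described here carry numbers that miRNA naming first gave out in cattle, from miR-2286 to miR-2492, outside the large miR-2284 and miR-2285 families that precede them. All rows of the deposited table with a cattle (bta) name in that range and a sequence of at least 18 nt were taken, which gave 103 of the table's 2271 rows, with 100 distinct sequences under 76 of the 207 possible numbers. The data are small RNA sequencing of 2 libraries from bovine lung, the first from collapsed lungs and the second from normal lungs. Each library was made from a single pool of total RNA with a TruSeq small RNA kit, and the series text describes the pools as RNA of 4 neonatal cows each, 500 ng per animal, from cloned or normal cows. The collapsed lungs are read here as those of the cloned animals, from the study's description and not from a label on the pool itself. Pooling left 1 library per group, so no difference here has a replicate check and no p-value is given. In bulk tissue, fewer cells of a type and less RNA per cell cannot be told apart.

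A miRNA is cut from a hairpin precursor, first by Drosha in the nucleus and then by Dicer in the cytoplasm, which leaves a short duplex of the 5p arm and the 3p arm. One strand is usually kept in an Argonaute protein, where bases 2 to 8 from its 5′ end, the seed, pair with target mRNAs. Because the seed is counted from the 5′ end, a start that is moved by a base gives a different seed. Many miRNAs first named in cattle came from early sequencing of bovine tissues and have been studied far less than conserved ones, so target roles are left out here.

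The sequences on which the results turn are given as deposited, 5′ to 3′ with T for U, and the seed of the deposited sequence is in capitals. The first set holds the most abundant rows and the rows whose ratios between the libraries left the counting error.
miR-2478: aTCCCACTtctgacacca
miR-2487: gCTCTAAGggctgggtcggtc
miR-2387: tGGAAGGCctggctttgcagcgt
miR-2484: gAGCTATGatgactttgatt
miR-2483-5p: cGTCAACCatccagctgtttga
miR-2483-3p: aAACATCTggttggttgagaga
miR-2448-3p: gTGGTTGAttggatccgtggat
miR-2308: tTGGGCTTgcagcagagagt
miR-2300b-p5: cTTAGCTAgttttgcctccctgt
miR-2300b-3p: gGGAGACAaaactagctgagga

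Across the table, the collapsed-lung library held 2822876 reads and the normal-lung library 4550911. A row with 3 reads, the upper limit that no reads allow, stood at 1.06 RPM (reads per 1000000 reads of its library) in collapsed lungs and 0.659 RPM in normal lungs. A miRNA read spans the whole molecule, so RPM was compared between rows without a length term. Levels of known tissue miRNAs were read in both libraries, which cannot tell lung from other organs that hold the same cell types. Endothelial miR-126 stood at 48683 RPM in collapsed and 46324 RPM in normal lungs, and the epithelial miR-200 family summed to 7462 and 8051 RPM. In the same order, the listed miRNAs of mesenchyme and smooth muscle summed to 186119 and 190392 RPM. Those of red cells summed to 2864 and 2990 RPM and those of leukocytes to 2370 and 2985 RPM. Striated muscle miRNAs summed to 46.4 and 58.4 RPM. The 4 listed miRNAs of multiciliated airway cells (miR-34b, miR-34c, miR-449a and miR-449b) summed to 2674 RPM in collapsed lungs and 7797 RPM in normal lungs, and the liver miRNA miR-122 stood at 17.4 and 34.3 RPM. The part of such cell differences in the values below was not tested.

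The miRNAs first named in cattle were scarce in both libraries. Together they held 2031 reads in collapsed lungs, 0.0719% of that library (exact binomial 95% interval 0.0689 to 0.0751%), and 2639 reads in normal lungs, 0.0580% (0.0558 to 0.0602%). By comparison the miR-2284 family, with 59 rows, took 0.0846% of collapsed-lung and 0.120% of normal-lung reads, and the miR-2285 family, with 85 rows, 0.0493% and 0.0589%. Reads were seen in both libraries for 61 of the 103 rows, in collapsed lungs only for 14 and in normal lungs only for 28. The same shares were not counted over all rows of the table, and the normal-lung library was the deeper. These counts are therefore not read as a trait of the group. The 42 rows seen in a single library had at most 4 reads, and 30 of them had 1 read or less. Neither library held more than 3 reads for 62 rows, at which depth no difference was detectable. The median row had 4 reads over both libraries, against 3.15 for all rows of the table.

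A mean of at least 10 RPM over the libraries, taken here as measured, was reached by 9 of the 103 rows (8.74%), against 487 of all 2271 rows (21.4%). In the miR-2284 family 15.3% of rows were measured, and in the miR-2285 family 10.6%. These 9 rows carried 87.3% of the group's reads in collapsed lungs and 85.8% in normal lungs. None was called higher or lower, which needed a ratio of at least 2 or at most 0.5 and an exact 95% counting interval leaving out 1. The background over all measured rows was 17 of 487 higher (3.49%) and 14 lower (2.87%), or 6.37% in either direction, and 0 of 9 rows does not stand apart from it. The median log2 ratio of the 9 rows was 0.23 (quartiles -0.11 and 0.55), against 0.09 (-0.18 and 0.34) over all measured rows, and 6 of 9 had ratios above 1, as had 58.9% of all measured rows. The interval left out 1 in 5 of the 9 rows, against 297 of 487 (61%). At a lower threshold of 1.5-fold, 1 of the 9 rows was called higher and 1 lower (11.1% each), the arms of miR-2483, against 12.7% higher and 7.19% lower over all measured rows.

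**Figure D1:**
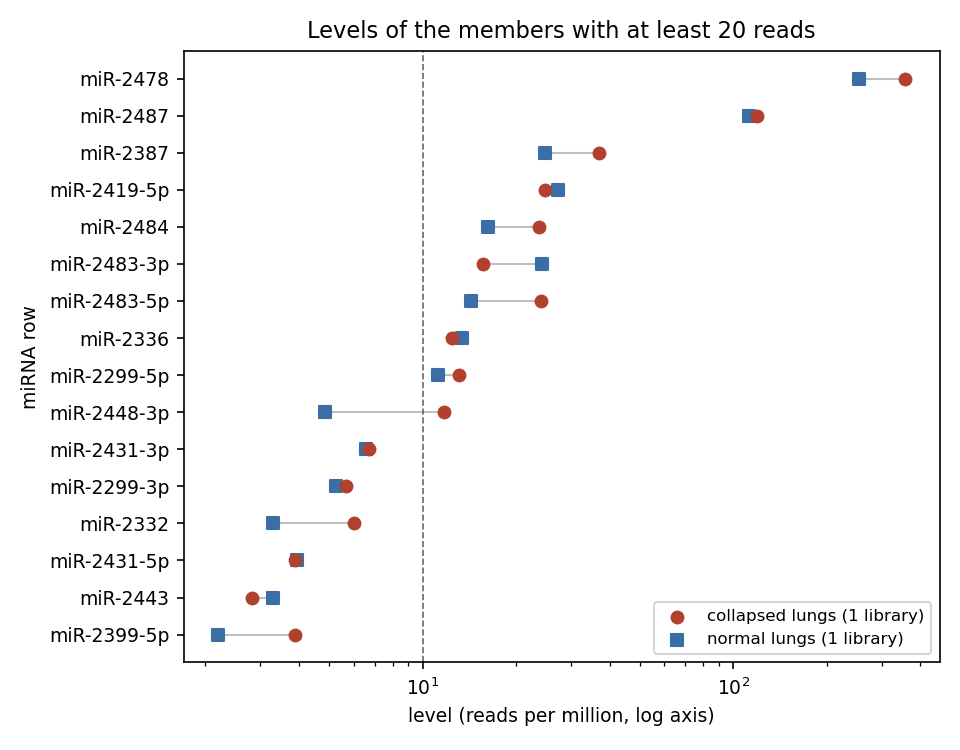
Level of each row with at least 20 reads over both libraries, in RPM on a log axis, with collapsed lungs as circles and normal lungs as squares, 1 library each, and the minimum of 10 RPM as a dashed line. miR-2478 and miR-2487 stand above 100 RPM in both libraries, and the symbols of miR-2448-3p lie far apart on either side of the line.

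miR-2478 was the most abundant. It had 1010 reads (358 RPM) in collapsed lungs and 1156 reads (254 RPM) in normal lungs, rank 163 of the table by mean level, and alone held 49.7% of the group's reads in collapsed lungs and 43.8% in normal lungs. Its ratio was 1.41 (1.29 to 1.53), short of the 2-fold threshold. The deposited sequence is 18 nt long and by its name starts 2 bases inside the annotated 5′ end, and it ends in CCA, the triplet that is added to the 3′ end of every tRNA. Ending in CCA was found in 6 of the 103 rows (5.83%), against 4 of 612 other cattle rows of at least 18 nt (0.654%), and the other 5 of the 6 had at most 7 reads in a library. Because of miR-2478, 50.3% of the group's reads in collapsed lungs and 44.1% in normal lungs ended in CCA, against 0.0323% and 0.0443% of reads on other cattle rows. Whether these reads come from the miRNA precursor or from a tRNA was not tested. The summed ratio of all 103 rows was 1.24 (1.17 to 1.32), and of the 102 rows without miR-2478 it was 1.11 (1.02 to 1.20).

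miR-2487 followed at 337 reads (119 RPM) in collapsed lungs and 510 reads (112 RPM) in normal lungs, with a ratio of 1.07 (0.926 to 1.22). By its name the reads begin 1 base before the annotated start and carry the substitution C16T, counted from the 5′ end of the deposited sequence, with the annotated base first and the deposited base last. These rows together gave the group 66.3% of its reads in collapsed lungs and 63.1% in normal lungs, and both are named as starting at another base than the annotated one. A moved start was recorded for 18 of the 103 rows (17.5%), holding 69.2% of the group's reads in collapsed lungs and 66.2% in normal lungs. On other cattle rows it was recorded for 71 of 612 (11.6%), with 4.92% and 5.10% of reads. These starts were read from the endings of the deposited names, and the annotated 5′ ends themselves were not looked up. By those names, the seed printed above for miR-2478 and miR-2487 is not that of the annotated miRNA.

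The group also differed in composition from other cattle rows. The median GC content was 54.5%, against 43.5% for the 612 other cattle rows of at least 18 nt, and the median length was 22 nt in both. A first base T, which Argonaute proteins favour as U, was found in 37.9% of the rows, close to the 37.3% of other cattle rows. By reads it was rare, at 8.96% of the group's reads in collapsed lungs and 8.58% in normal lungs, against 78.0% and 78.1% on other cattle rows. Sequences of 20 nt or less made up 13.6% of the rows, against 10.9% of other cattle rows. They held 53.9% of the group's reads in collapsed lungs and 47.3% in normal lungs, against 3.48% and 3.31%. Most of these reads were those of miR-2478, which held 49.7% of the group's reads in collapsed lungs and 43.8% in normal lungs. By the names, the exact annotated sequence stood on 28 rows (27.2%), against 34.6% of other cattle rows. These 28 rows held 16.7% and 21.7% of the group's reads, against 55.4% and 56.2% on other cattle rows. Together miR-2478 and miR-2487 held 66.3% of the group's reads in collapsed lungs and 63.1% in normal lungs. Neither starts with T, and by their names neither is the exact annotated sequence. A base substitution was named on 15 rows, at the last base in 6 of them and within the seed in 0. At each of the 15 positions the deposited sequence carried the base that the name gives.

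**Figure D2:**
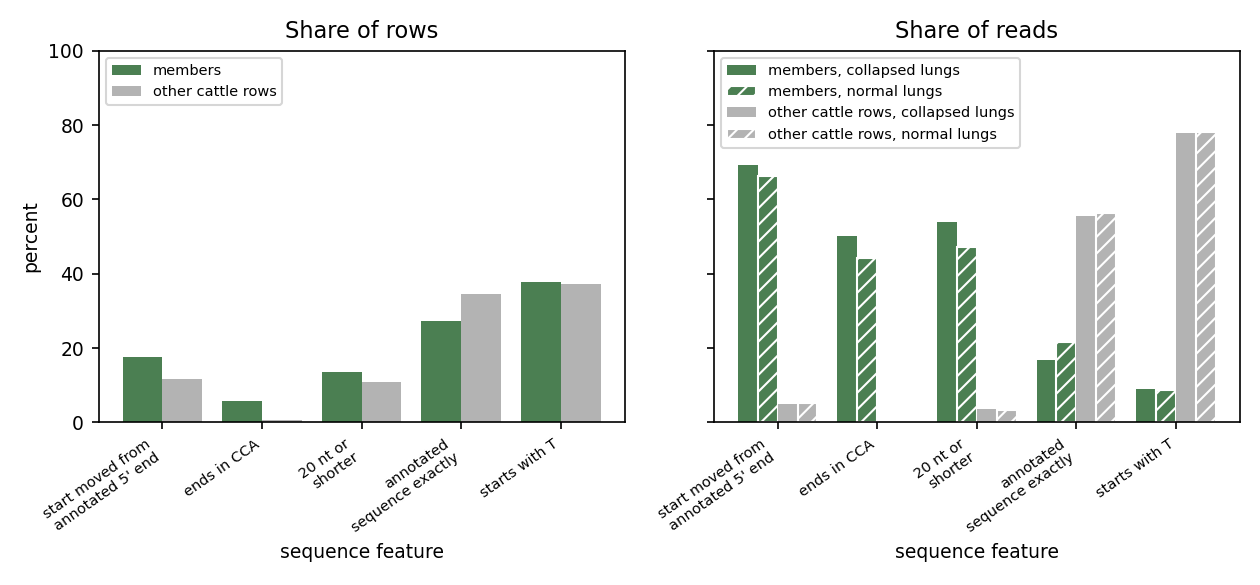
Percent of rows (left) and of reads (right) that show each sequence feature, for the 103 rows described here (green) and the 612 other cattle rows of at least 18 nt (grey), with plain bars for collapsed lungs and hatched bars for normal lungs at right. Moved starts stand on 17.5% of rows of the green set and 11.6% of the grey, and by reads they hold 69.2% and 66.2% of the green set and 4.92% and 5.10% of the grey.

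Among the better covered rows, miR-2387 had 104 reads (36.8 RPM) in collapsed lungs and 113 reads (24.8 RPM) in normal lungs, a ratio of 1.48 (1.13 to 1.95). miR-2484 had 67 reads (23.7 RPM) in collapsed and 74 reads (16.3 RPM) in normal lungs, a ratio of 1.46 (1.03 to 2.06). Both were somewhat higher in the collapsed-lung library, and the interval of miR-2484 left out 1 only when libraries were scaled to their totals, not with any of 3 other scalings. By RefSeq annotation the gene of miR-2387 lies within the span of GTF2IRD1, which encodes a transcription factor. miR-2419-5p had 70 and 124 reads in collapsed and normal lungs (24.8 and 27.2 RPM), a ratio of 0.910 (0.669 to 1.23). miR-2336 had 35 and 61 reads (12.4 and 13.4 RPM), a ratio of 0.925 (0.592 to 1.42). miR-2299-5p had 37 and 51 reads (13.1 and 11.2 RPM), a ratio of 1.17 (0.745 to 1.82). The intervals of these last 3 rows included 1 and none of them reached the 2-fold thresholds.

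The arms of miR-2483 lay on opposite sides of 1. The 5p arm had 68 reads (24.1 RPM) in collapsed lungs and 65 reads (14.3 RPM) in normal lungs, a ratio of 1.69 (1.18 to 2.41). The 3p arm had 44 reads (15.6 RPM) in collapsed lungs and 110 reads (24.2 RPM) in normal lungs, a ratio of 0.645 (0.444 to 0.923). The 5p arm thus made up 60.7% of the precursor's reads in collapsed lungs (exact binomial 95% interval 51.0 to 69.8%) and 37.1% in normal lungs (29.97 to 44.8%), and these intervals do not overlap. The ratio of the 5p arm was 2.62 times that of the 3p arm (exact conditional 95% interval 1.56 to 4.39), a gap of 1.39 on the log2 scale that no scaling of the libraries can alter. Summed over both arms miR-2483 had 112 and 175 reads in collapsed and normal lungs, at a ratio of 1.03 (0.807 to 1.32). The interval of this sum included 1, and the precursor itself was not measured. By their names both arms are the exact annotated sequences. RNAduplex paired them over 16 base pairs with 3′ overhangs of 1 and 2 bases, where Drosha and Dicer are known to leave 2.

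Both arms reached 10 RPM for this precursor alone within the group, so its gap was set beside those of 31 other cattle precursors with both arms measured. Their median absolute gap was 0.23 on the log2 scale, and 2 of the 31 had a gap above 1, miR-2284aa at 2.39 and miR-23b at 1.03. The gap of miR-2483 was larger than those of all but miR-2284aa, a family member whose reads cannot be fully told from those of its relatives. This ranking leaves out counting error, and many of the 31 had far more reads than the 44 to 110 per arm and library of miR-2483. These values describe 2 libraries, and arm use was not compared between animals. The gene of miR-2483 lies on chromosome X within the span of TENM1, which encodes teneurin 1, a cell surface protein.

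Reads on both arms were found for 24 precursors of the group, 11 of them with at least 20 reads over both. miR-2299 had 69.8% of its reads on the 5p arm in collapsed lungs (55.7 to 81.7%) and 68.0% in normal lungs (56.2 to 78.3%), and miR-2431 had 36.7% (19.9 to 56.1%) and 37.5% (23.95 to 52.6%). miR-2419 was read almost wholly from its 5p arm, at 97.2% in collapsed and 98.4% in normal lungs, and miR-2448 from its 3p arm. In miR-2299 and miR-2431 the arm shares differed by less than their counting error. miR-2399 had 11 reads on the 5p and 1 on the 3p arm in collapsed lungs, against 10 and 10 in normal lungs. The 5p share of miR-2399 was 91.7% (61.5 to 99.8%) in collapsed and 50% (27.2 to 72.8%) in normal lungs, with overlapping intervals, although the ratio between its arms' ratios, 11.0, had an exact conditional interval of 1.10 to 520. In 17 of the 24 precursors the arms paired with 3′ overhangs of 1 to 3 bases at both ends, and in 4 with 2 bases at both. Overhangs were not computed for other cattle precursors, and some of these arms, such as those of miR-2454, rest on 1 read.

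**Figure D3:**
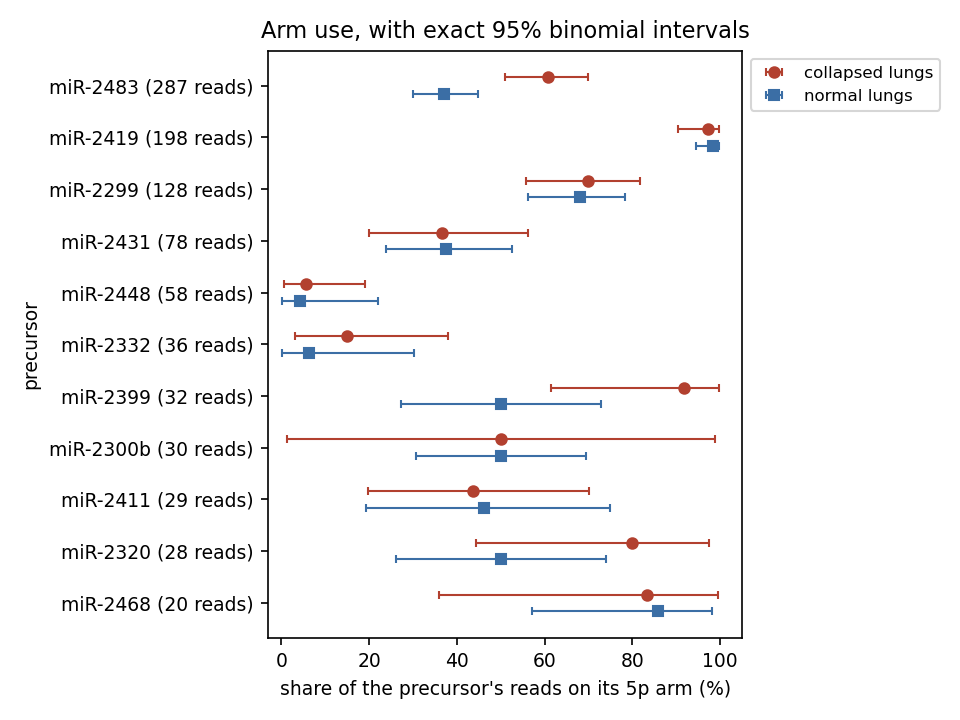
Share of each precursor's reads that lay on its 5p arm, in percent, for the 11 precursors with at least 20 reads, with collapsed lungs (circles) above normal lungs (squares) and bars for exact 95% binomial intervals of counting error. For miR-2483 the intervals are apart, 51.0 to 69.8% in collapsed and 29.97 to 44.8% in normal lungs, and for the other 10 precursors they overlap.

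Below the minimum of 10 RPM lay 94 rows, which summed to 259 reads (91.6 RPM) in collapsed lungs and 375 reads (82.3 RPM) in normal lungs, a ratio of 1.11 (0.947 to 1.31). Past 2-fold with an interval leaving out 1 were 2 of them higher and 2 lower (2.13% each), against 1.79% higher and 0.953% lower among all 1784 rows under the minimum, so the share is near the background. The same 4 rows gave 1.94% in each direction when all 103 rows were counted without a minimum, against 2.16% higher and 1.37% lower over the table. Of the 34 rows of at least 1 RPM they gave 5.88% in each direction, against 5.02% and 3.53%. The higher rows were miR-2448-3p and miR-2308. miR-2448-3p had 33 reads (11.7 RPM) in collapsed lungs and 22 reads (4.83 RPM) in normal lungs, a ratio of 2.42 (1.37 to 4.35), and its 5p arm had 2 reads in collapsed and 1 in normal lungs. The name records a substitution, G21A, near its 3′ end. Its seed is shared with miR-380-5p, a miRNA of the imprinted DLK1-DIO3 cluster in human and mouse, which had 5 reads in collapsed and 8 in normal lungs. miR-2308 had 10 reads (3.54 RPM) in collapsed lungs and 3 (0.659 RPM) in normal lungs, a ratio of 5.37 with a wide interval of 1.38 to 30.4.

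The lower rows were both arms of miR-2300b, at 1 read each in collapsed lungs and 14 reads each in normal lungs. Each arm stood at 0.354 RPM in collapsed and 3.08 RPM in normal lungs, a ratio of 0.115 (0.00272 to 0.757). Summed over the arms there were 2 reads in collapsed and 28 in normal lungs, a ratio of 0.115 (0.0133 to 0.457). The arms have different sequences, which paired over 19 base pairs. The RefSeq gene of miR-2300b lies within the span of FLT1, which encodes a receptor for vascular endothelial growth factor. It overlaps the gene of miR-2300a, which has no row of its own under the numbers taken here. The reads of both miR-2300b rows are whole numbers, and whether some come from miR-2300a was not tested. At 1 read against 14 the value is uncertain. The endothelial miR-126 stood at 48683 RPM in collapsed and 46324 RPM in normal lungs. Whether endothelial cell content bears on the reads of miR-2300b was not tested. The level of FLT1 itself was not measured here. The authors' deposited table set 5 of the 103 rows apart as different (4.85%), namely these 4 and miR-2399-3p, against 78 of all 2271 rows (3.43%), so that share too is near the background.

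**Figure D4:**
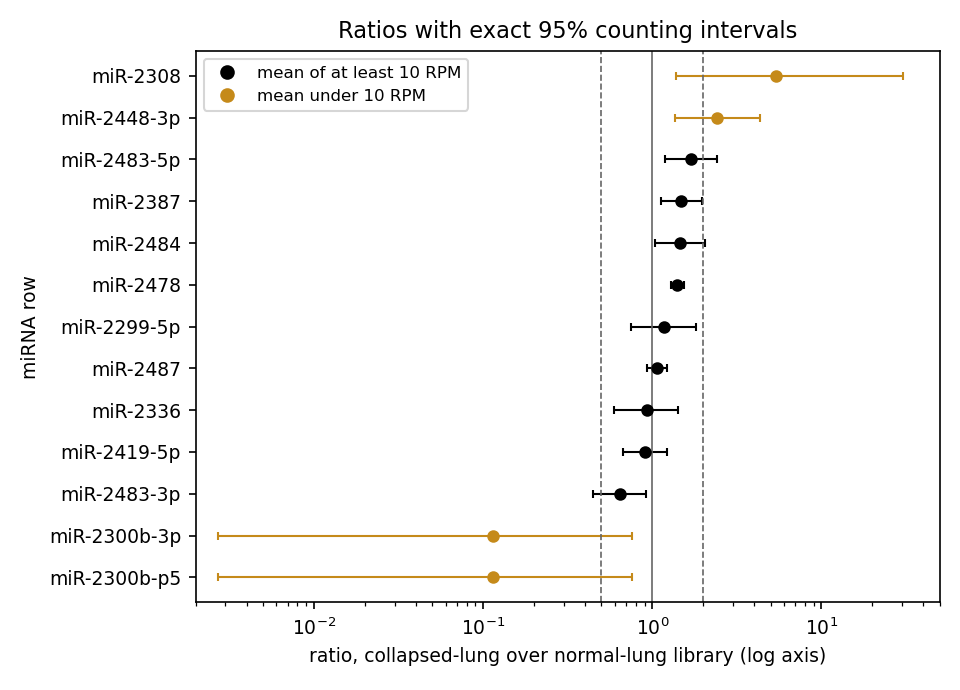
Collapsed-lung level over normal-lung level, with exact 95% counting intervals, on a log axis with lines at 0.5, 1 and 2, for the 9 rows of at least 10 RPM (black) and the 4 rows under 10 RPM that passed 2-fold with an interval leaving out 1 (ochre). The black points lie between 0.645 and 1.69, and those of miR-2300b lie at 0.115 with the widest bars.

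Few of these miRNAs belong to a larger seed family. The 100 distinct sequences had 100 distinct seeds, and 9 of them (9%) shared a seed with another distinct named sequence of at least 18 nt, against 232 of 518 other cattle sequences (44.8%). These other sequences include the miR-2284 and miR-2285 families, which the group leaves out and in which some members share a seed. The share without these families was not counted. Some rows overlap a better known miRNA in letters, and the next set shows these overlaps in capitals, chosen for their likeness after the values were seen.
miR-2312: AAAACCTGAATGAACTTTTcgg
miR-2285f: AAAACCTGAATGAACTTTTtgg
miR-2354: TAGTAGGTTGTGTGGTTta
let-7b: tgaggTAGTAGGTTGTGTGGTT
miR-2489-p3: tttgcccTCCTTCATTCCAta
miR-205: TCCTTCATTCCAccggagtctgt
The deposited miR-2312 shared 19 letters and its seed with miR-2285f, and RefSeq places its gene on that of miR-2284j, of a family that precedes the group. It had 0 reads in collapsed and 0.75 in normal lungs, against 193 and 397 on each of the 3 equal rows of miR-2285f. miR-2354 shared 17 letters with let-7b, a developmental miRNA, starting inside it, and had 0 and 0.33 reads in collapsed and normal lungs, against 56716 and 90776 for let-7b. miR-2489-p3 shared 12 letters with the epithelial miR-205 and had 2 and 0 reads. The names of miR-2312, miR-2354 and miR-2489-p3 record substitutions inside these runs, C11T, T14G and A17C. By those names the runs belong to the deposited sequences, and the annotated miRNAs differ from them at that base. miR-2310 was identical to the deposited sequence of miR-1814c, and both rows carried 1.67 reads in collapsed and 3.67 in normal lungs. miR-2435, with 0 and 1 reads, shared 13 letters with miR-2284w-p3 and its seed with miR-2284t-3p. Runs of at least 12 letters shared with another named row were found for 6 of the 103 rows. The same count was not made for other cattle rows, so it is not read as a trait of the group. Only unbroken runs were counted, so a likeness broken by a mismatch is missed. The longest such run of miR-2478 was 9 letters, with the mouse-named miR-3968, which had 17 reads in collapsed and 18 in normal lungs. Apart from a single letter, the deposited miR-2478 stands whole at the end of miR-3968, and both end in CCA.

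The label of miRNAs first named in cattle held for the names, and it does not mean that the genes are confined to cattle. The human name miR-2355-5p stood in the table with 8 reads in collapsed and 5 in normal lungs, beside the cattle row of its other arm, miR-2355-3p, with 2 reads in each library. It was the single row under another species' name with a number in this range.

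Of the 76 precursor names, 74 matched a miRNA gene of RefSeq on the ARS-UCD2.0 assembly, on 25 chromosomes. The table gives no strand, so whether a miRNA and the gene around it are transcribed together cannot be read from it. Within the span of a protein-coding gene lay 59 of the 74 (79.7%), against 615 of 958 other cattle miRNA genes (64.2%). Another miRNA gene lay within 10 kb of 7 (9.46%), against 267 of the others (27.9%). Among the 7, miR-2443 lies near let-7a-3 and let-7b. It had 8 reads (2.83 RPM) in collapsed and 15 reads (3.30 RPM) in normal lungs, while let-7b stood at 20092 and 19947 RPM.

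At the length limit of 18 nt stood miR-2478 and miR-2310, described above. Just outside it were 3 rows of 17 nt, miR-2345-p5, miR-2471-p3 and miR-2485-p5, each with 0 reads in collapsed and 1 in normal lungs.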

How the data were processed

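Per the labels, Trizol was used for RNA and a TruSeq kit for the small RNA libraries. The genome build was bosTau8, per the submitters' processing notes; for aligner, trimming and miRNA database no source used here gives a name. The authors deposited reads per row, which were whole within 0.05 reads in both libraries for 96 of the 103 rows, and a normalized signal equal to the deposited reads over 0.823 in collapsed and 1.21 in normal lungs. The deposited table's p-values were not used, and 2 emptied lines were not analysed here.

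Reads were scaled to the 2822876 and 4550911 reads of the collapsed-lung and normal-lung libraries in the table. Ratios have exact conditional binomial 95% intervals on reads rounded to whole numbers, and shares have Clopper-Pearson intervals. Both are for counting error only, not for variation between animals or libraries. PCR reads without molecular identifiers are not independent molecules, so the intervals may be too narrow even for counting error. Where a library had no reads, 0.5 read was added to both. No test between conditions was possible with 1 library per group. The ratio and interval code was tested on simulated reads. Suffixes of deposited names were read as the ends moved at left (L) or right (R) and as base substitutions (ss), and p5 or p3 as an arm named by position. Arms were paired with RNAduplex of ViennaRNA 2.7.2. Statistics used Python 3.11.15 with scipy 1.17.1.

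The group, the lists and the thresholds were chosen with earlier results of these data known. Named rows are those of at least 10 RPM, up to 5 higher and 5 lower rows under it past 2-fold with an interval leaving out 1, their other arms, rows that share their seed, and rows at the length limit; other names in the text were chosen after their values were seen. Other scalings, pseudocounts, minimums and name rules were tried.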

Additional observations from a re-analysis of the deposited data

How the results depend on the processing

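No paired analysis was possible because each condition was sequenced as a single pooled library. With median-of-ratios factors, a trimmed mean of M values and the authors' normalized values, log2 ratios moved by -0.16, -0.11 and -0.13, and the counts of 0 higher and 0 lower calls among measured rows did not change. These scalings gave miR-2487, at a log2 ratio of 0.09, -0.06, -0.02 and -0.04, took the log2 ratio of miR-2478, 0.49, to 0.34, 0.38 and 0.37, and brought the interval of miR-2484 over 1, leaving 4 of 5 rows with an interval that leaves out 1. The median log2 ratio of measured rows, 0.23, was 0.07, 0.11 and 0.10 under them, 0.17 with a minimum of 1 RPM, 0.49 with sequences of any length and -0.05 over all 103 rows. Of 65 alternative ratios for 13 named rows, 63 lay within the row's own counting interval. This count says little about robustness. Summing rows by name left each of the 13 ratios unchanged. The scalings moved all rows alike, by less than the median half-width of the measured rows' intervals, 0.50 on the log2 scale. Calls numbered 2 higher and 2 lower both without a minimum and at 1 RPM, and 1 and 1 at a ratio of 1.5, with the shares over all rows given in the report. Sequences of any length gave 2 higher calls in 11 rows, against 3.49% of all rows, which also have any length. A pseudocount of 5 reads took each arm of miR-2300b to -0.97 from -3.12, and the arm gap of miR-2483 to 1.29, the last an alternative chosen after seeing the data. Depth limits 74 rows, which had under 10 reads in all, and the lack of replicates limits every row.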

Other observations

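Sequences shorter than 18 nt were left out by the length limit, 14 rows under numbers of the same range, and the 2 of them above 10 RPM were both called higher. Over all rows of at least 10 RPM, of any length, 3.49% were called higher. The share called among other short rows was not counted, so these 2 cannot be set against rows of like length. miR-2440, at 16 nt, had 85 reads (30.1 RPM) in collapsed lungs and 44 reads (9.67 RPM) in normal lungs, a ratio of 3.11 (2.14 to 4.59). miR-2340, also 16 nt, had 55 reads (19.5 RPM) in collapsed lungs and 35 reads (7.69 RPM) in normal lungs, a ratio of 2.53 (1.63 to 3.99). The 16 nt row of miR-2478-p5, named for the other side of its precursor, had 1 read in collapsed and 0 in normal lungs, against 1010 and 1156 reads for miR-2478 itself.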
